A study of Rattus norvegicus with 3 samples.

Results

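The VEGF and angiopoietin system was described in motor cortex of 3 male Sprague-Dawley rats, numbered 12, 24-4 and 33. All 3 went through cerebral ischemia, in which the blood supply of the brain is cut off, and reperfusion, its restoration, and received electroacupuncture at the GB20 (Fengchi) point. The labels give a time of 8 weeks without saying from what it is counted. All animals belong to 1 group, which leaves no untreated or unstimulated animal to compare with, and each rat gave 1 library. The system was taken as 10 genes, found by exact gene name among the 30957 genes listed in every file: the ligand genes Vegfa, Vegfb, Vegfc, Angpt1 and Angpt2 and the receptor genes Flt1, Kdr, Flt4, Tek and Tie1. Each name stood in 1 row.

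Vascular endothelial growth factors are secreted proteins that bind receptor tyrosine kinases on endothelial cells and drive vessel growth and permeability. Vegfa is induced when oxygen is short and acts through Flt1 (VEGF receptor 1, a high-affinity receptor with weak kinase activity) and Kdr (VEGF receptor 2, the main signalling receptor). Vegfb binds Flt1, and Vegfc binds Flt4 (VEGF receptor 3, best known from lymphatic vessels) and also Kdr. Angiopoietins act on Tek, the Tie2 receptor, where Angpt1 is an agonist that stabilizes vessels and Angpt2 a context-dependent antagonist. Tie1 is a relative of Tek with no ligand of high affinity that modulates Tek signalling. In brain, astrocytes and neurons are known to make Vegfa and mural cells to make Angpt1, while the receptors sit mainly on endothelium.

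The unit is FPKM (fragments per kilobase and per 1000000 fragments), a measure scaled for gene length, so it allows the levels of different genes to be set side by side. Library depths, estimated from the steps between low values, were between 12990000 and 17220000 fragments. The tissue label was checked on 7 genes of glutamatergic neurons, all of which reached a mean FPKM of 1, with Slc17a7, the vesicular glutamate transporter, at 499 ± 184 (SD, n = 3). Libraries differed in markers of the choroid plexus, the tissue that secretes cerebrospinal fluid. The 7 markers measured summed to 3347, 130 and 13247 FPKM in rats 12, 24-4 and 33. The mitochondrial genome took 26.6%, 14.4% and 20.9% of all FPKM in rats 12, 24-4 and 33.

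Vegfa, the ligand induced by lack of oxygen, was the most abundant gene of the system in every animal. Rats 12, 24-4 and 33 had FPKM values of 31.2, 17.6 and 27.4, with a mean of 25.4 ± 6.99 (SD, n = 3 rats, here and below). Rat 24-4 was the low animal. Among the 13754 genes whose mean FPKM reached 1, Vegfa stood at percentile 81.6, 66.1 and 78.2 in rats 12, 24-4 and 33. Vegfa alone made up 73.3%, 63.7% and 64.2% of the summed FPKM of the 5 ligand genes, in the same order. The gene (ENSRNOG00000019598) lies on chromosome 9 at 17340341 to 17355681 on the plus strand of Rnor_6.0. Its proximal promoter is shown as that of the highest ligand, followed by those of Flt1, the highest receptor, and Kdr, the receptor through which Vegfa mainly signals. The sequences are from RefSeq on build GRCr8, from 250 bases before to 50 bases after the gene's start, with capitals on the letters of 5 motifs. These were the GC box GGGCGG, the core ACGTG of a hypoxia response element, its other form GCGTG, the TATA box TATAAA, and the cyclic AMP response element TGACGTCA.
Vegfa, chr9:22452604-22452903, plus strand: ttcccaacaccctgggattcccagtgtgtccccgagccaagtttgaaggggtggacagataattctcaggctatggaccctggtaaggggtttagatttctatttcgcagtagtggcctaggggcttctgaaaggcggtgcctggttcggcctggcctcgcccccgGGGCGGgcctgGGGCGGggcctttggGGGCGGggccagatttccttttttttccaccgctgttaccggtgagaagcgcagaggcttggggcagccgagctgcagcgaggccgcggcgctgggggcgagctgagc
Flt1, chr12:12333180-12333479, plus strand: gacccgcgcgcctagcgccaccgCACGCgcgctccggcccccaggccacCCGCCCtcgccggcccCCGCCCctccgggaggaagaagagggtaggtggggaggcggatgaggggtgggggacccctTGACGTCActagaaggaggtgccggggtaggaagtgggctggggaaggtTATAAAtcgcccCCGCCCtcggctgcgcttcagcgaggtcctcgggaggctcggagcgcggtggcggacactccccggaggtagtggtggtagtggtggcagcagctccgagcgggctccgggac
Kdr, chr14:32571813-32572112, plus strand: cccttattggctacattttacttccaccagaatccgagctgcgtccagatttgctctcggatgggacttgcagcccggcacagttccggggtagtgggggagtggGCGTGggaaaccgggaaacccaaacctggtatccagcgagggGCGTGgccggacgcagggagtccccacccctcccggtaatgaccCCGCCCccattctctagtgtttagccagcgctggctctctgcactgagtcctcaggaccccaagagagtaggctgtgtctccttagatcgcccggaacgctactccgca
The motifs were searched on both strands after the sequences had been seen. The Vegfa window held 3 GC boxes and none of the other motifs, the Flt1 window held 3 GC boxes, 1 TATA box, 1 cyclic AMP response element and 1 core of the second form, and the Kdr window held 1 GC box and 2 cores of the second form. None of these matches overlapped another motif. A second start listed for Vegfa, at chr9:22460028-22460327, held none of the motifs. Promoter entries were matched for 7 of the 10 genes, and at least 1 GC box was found for all 7. Of all 33469 promoter windows of the table, 33.1% held the GC box, 19.3% the first and 29.7% the second form of the hypoxia core, 14.2% the TATA box and 1.83% the cyclic AMP response element. GC content was 63.3% for Vegfa, 72.7% for Flt1 and 61.0% for Kdr, against a median of 51.7% over all windows. These matches describe the letters of the windows only.

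Vegfb followed Vegfa among the ligands, and the remaining 3 ligand genes lay near an FPKM of 1. Vegfb (ENSRNOG00000021156, chromosome 1, 222239022 to 222242644, minus strand) had 7.15, 7.92 and 10.4 in rats 12, 24-4 and 33. Its mean was 8.48 ± 1.68, with rat 33 highest. Vegfb is known as a VEGF that acts on vessels without driving sprouting strongly. Vegfc (ENSRNOG00000011416, chromosome 16, 40440207 to 40555576, minus strand) had 1.77, 0.789 and 1.05, with a mean of 1.20 ± 0.511. Rat 12 was highest for Vegfc, as it was for Vegfa.

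The angiopoietin genes were low in all animals. Angpt1 (ENSRNOG00000005854, chromosome 7, 81342280 to 81592206, minus strand) had 1.03, 0.429 and 2.40 in rats 12, 24-4 and 33, with a mean of 1.29 ± 1.01. It had the widest relative spread of the system, with the highest value 5.59 times the lowest. Without rat 33 its mean was 0.731, under the mean FPKM of 1 used as a filter and below the means of 1.17 for Angpt2 and 1.28 for Vegfc without that rat. Angpt2 (ENSRNOG00000016696, chromosome 16, 75966352 to 76016195, plus strand) had 1.41, 0.925 and 1.45, with a mean of 1.26 ± 0.292. Its values are uncertain, because the locus lies inside Mcph1 (chromosome 16, 75904006 to 76110553, minus strand), which had 2.26, 2.95 and 2.39. Whether counting used the strand is not given in the sources used here, and only the spans of the genes were compared. How far reads of the 2 genes are mixed was not tested. The order of Angpt1 and Angpt2 differed between animals, since Angpt1 was the lower of the pair in rats 12 and 24-4 and the higher in rat 33.

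Flt1 was the highest receptor gene, with values close to each other in the 3 animals. Flt1 (ENSRNOG00000000940, chromosome 12, 9034308 to 9205905, plus strand) had 12.1, 10.3 and 13.1 in rats 12, 24-4 and 33, with a mean of 11.8 ± 1.39. FPKM per gene does not separate the membrane form of Flt1 from its soluble form, which captures Vegfa. Kdr (ENSRNOG00000046829, chromosome 14, 34727623 to 34787183, plus strand) had 2.78, 2.18 and 5.01, with a mean of 3.32 ± 1.49. Rat 33 stood above the other 2 animals for Kdr, while the 3 values of Flt1 lay within 1.27 times of each other. Flt4 (ENSRNOG00000002511, chromosome 10, 35078726 to 35121599, plus strand) was the lowest of the 10 genes and the only one with a mean FPKM under 1. It had 0.763, 0.649 and 0.712, with a mean of 0.708 ± 0.0573.

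The Tie receptor genes had mean levels between those of Flt1 and Kdr. Tie1 (ENSRNOG00000020173, chromosome 5, 137294532 to 137321101, minus strand) had 7.29, 9.94 and 10.7 in rats 12, 24-4 and 33, with a mean of 9.32 ± 1.80. Tek (ENSRNOG00000008587, chromosome 5, 113725717 to 113852799, plus strand) had 5.53, 5.95 and 10.1, with a mean of 7.18 ± 2.51. Rat 12 was the low animal for both genes. Rat 33 was the highest for both, but its Tie1 value was close to that of rat 24-4, whereas its Tek value stood apart. The row AABR07049286.1, on the opposite strand inside Tek, was listed at 0 in all rats.

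**Figure D1:**
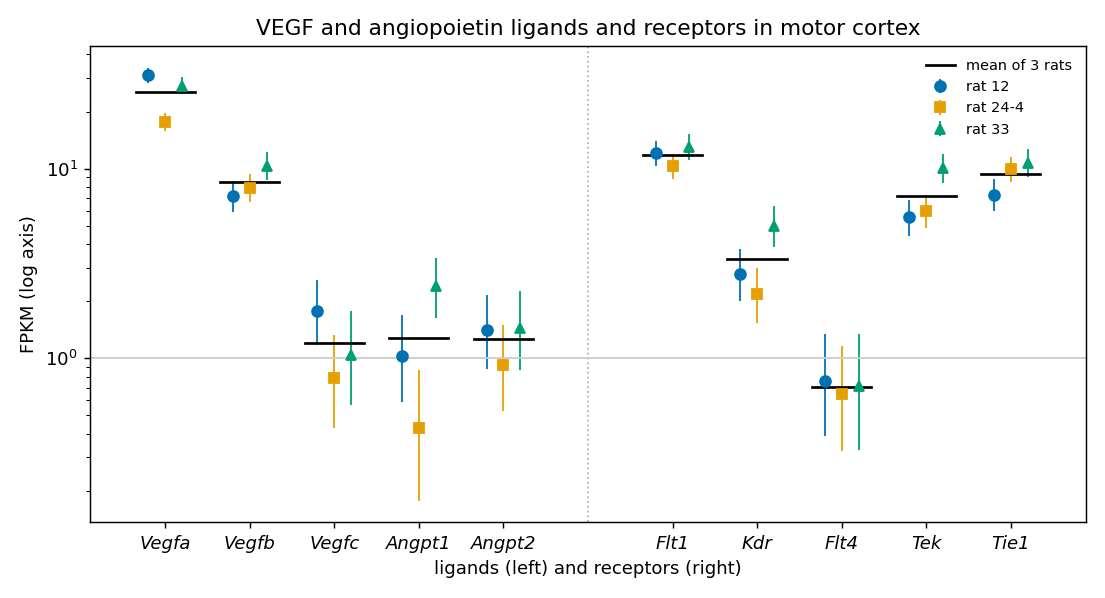
FPKM (log axis) of the 5 ligand genes (left) and 5 receptor genes (right) in rats 12, 24-4 and 33; black lines are means of the 3 rats, and vertical lines are exact 95% Poisson intervals that a 1-kb transcript would have at the estimated depth. Vegfa is highest, at 17.6 to 31.2, and Flt4 lowest, at 0.649 to 0.763, with Angpt1, Angpt2, Vegfc and Flt4 around an FPKM of 1.

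The depth behind a value differs widely within the system. At the estimated depths, 1 kb of transcript would rest on 478, 304 and 356 fragments for Vegfa in rats 12, 24-4 and 33, and on 15.8, 7.39 and 31.1 fragments for Angpt1. For such a transcript the exact 95% Poisson interval of the FPKM of Vegfa was 15.7 to 19.7 in rat 24-4, below those of 28.4 to 34.1 in rat 12 and 24.6 to 30.4 in rat 33. For Angpt1 it was 0.178 to 0.868 in rat 24-4 and 1.63 to 3.40 in rat 33, so these intervals did not overlap. For Flt4 the intervals were 0.390 to 1.34, 0.326 to 1.16 and 0.330 to 1.34 in rats 12, 24-4 and 33. A difference between the animals in Flt4 was thus not detectable at this depth for a transcript of that length. Of 3 fragments, such a transcript would have an FPKM of 0.196, 0.174 and 0.231, and every value of the 10 genes lay above that. Counting error is all that these intervals and floors cover, and the transcripts are longer or shorter than 1 kb.

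In the order of mean FPKM, Vegfa came first, followed by Flt1, Tie1, Vegfb, Tek, Kdr, Angpt1, Angpt2, Vegfc and Flt4. Of the 9 pairs of neighbours in that order, 3 had ranges over the animals that did not overlap. These were Vegfa and Flt1, Tek and Kdr, and Vegfc and Flt4, where the lowest Vegfc value of 0.789 was just above the highest Flt4 value of 0.763. For 3 other neighbours the mean difference within animals was smaller than its SD. On the log2(FPKM + 1) scale, on which all differences below are given, Tie1 minus Vegfb was 0.12 ± 0.15, Angpt1 minus Angpt2 was -0.07 ± 0.48 and Angpt2 minus Vegfc was 0.05 ± 0.23. Tie1 was nevertheless above Vegfb in all 3 animals, while the sign of the other two differences was not shared. Angpt1 is placed above Angpt2 by its mean FPKM, but its mean on the log2 scale was 1.10 against 1.17 for Angpt2. This scale understates differences between genes with low FPKM.

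Ligand genes had lower medians than receptor genes in every animal. The median of the 5 ligand genes was 1.47, 0.94 and 1.76 in rats 12, 24-4 and 33, against 2.71, 2.80 and 3.47 for the 5 receptor genes. The ligand minus receptor difference was -1.24, -1.85 and -1.71, with a mean of -1.60 ± 0.32. With means over members in place of medians it was -0.08, -0.49 and -0.36, with a mean of -0.31 ± 0.21. The summed FPKM went the other way in 2 animals, being 42.5, 27.7 and 42.6 for ligands and 28.4, 29.03 and 39.6 for receptors in rats 12, 24-4 and 33. Ligands summed higher in rats 12 and 33 and lower in rat 24-4, and most of the ligand sum was Vegfa. No p-value is given for these summaries, since the genes were chosen as a group.

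Each ligand was then set beside its own receptors within the same animal. Vegfa exceeded Kdr by 3.09, 2.55 and 2.24 in rats 12, 24-4 and 33, with a mean of 2.63 ± 0.43, and its FPKM was 11.2, 8.07 and 5.47 times that of Kdr. Vegfa exceeded Flt1 by 1.30, 0.72 and 1.01, with a mean of 1.01 ± 0.29. Vegfa was thus above both of its receptors in all 3 animals, by more over Kdr than over Flt1. Vegfb minus Flt1 was -0.44 ± 0.21, with Vegfb lower in all 3 animals. Vegfc minus Flt4 was 0.34 ± 0.28, and Vegfc minus Kdr was -0.94 ± 0.56. Vegfc therefore lay above Flt4 and below Kdr in each animal.

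Angiopoietin genes were below their receptor gene in each animal. Angpt1 minus Tek was -1.68, -2.28 and -1.71 in rats 12, 24-4 and 33, with a mean of -1.89 ± 0.34. Angpt2 minus Tek was -1.44, -1.85 and -2.18, with a mean of -1.82 ± 0.37 and with the doubt about Angpt2 reads given above. The angiopoietin genes had at most 0.256 of the FPKM of Tek in any animal. Among receptors, Flt1 exceeded Kdr by 1.61 ± 0.34, Kdr exceeded Flt4 by 1.29 ± 0.46, and Tek minus Tie1 was -0.36 ± 0.29. Among ligands, Vegfa exceeded Vegfb by 1.46 ± 0.47 and Vegfc by 3.57 ± 0.21.

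Of the 13 pairs, 12 had 1 sign in all 3 animals, the exception being Angpt1 minus Angpt2. With the 6 further pairs of neighbours, which were picked by mean FPKM in these same animals, 17 of 19 did. The exact sign-flip permutation test (two-sided) gave p = 0.25 for each of these 17, which is the smallest value that 3 animals allow, and 0.279 after Benjamini-Hochberg adjustment over the 19 pairs. The design could therefore not reach 0.05 for any pair.

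**Figure D2:**
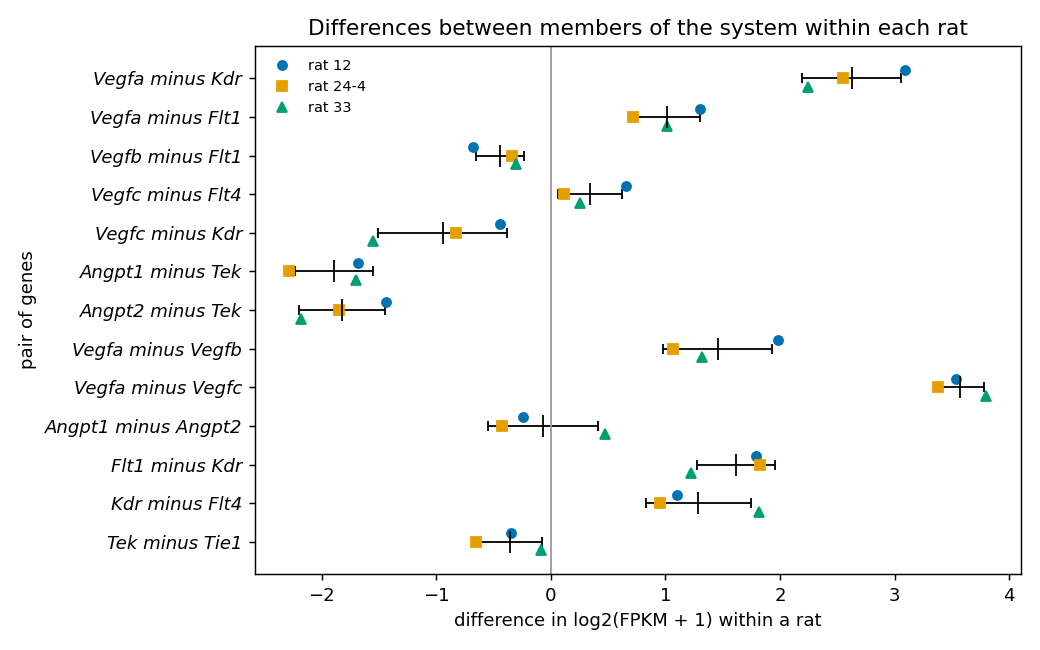
Difference in log2(FPKM + 1) within a rat for the 13 pairs of genes; symbols are rats 12, 24-4 and 33, and black bars are the mean and SD of the 3 rats. Vegfa minus Vegfc is the widest difference, at 3.57 ± 0.21, and Angpt1 minus Angpt2 is the pair whose sign is not shared by all rats.

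Rat 33 had the highest value for most of the system and rat 24-4 the lowest. Rat 33 was highest for 7 of the 10 genes, against 42.0% of all 13754 genes tested, and rat 24-4 was lowest for 7 of the 10, against 33.3% of them. The order of rat 33, rat 12 and rat 24-4 was seen for Flt1, Kdr, Angpt1 and Angpt2, 4 of the 10 genes, against 20.7%. The other 3 genes that were highest in rat 33 were Vegfb, Tek and Tie1, for which rat 12 was lowest. Vegfa, Vegfc and Flt4 were highest in rat 12 and lowest in rat 24-4. These counts depend on the scaling. With the mitochondrial genome left out and FPKM rescaled, rat 33 was highest for 6 genes and rat 24-4 lowest for 9, against 41.9% and 43.8% of genes tested. With the medians of all tested genes made equal, the counts were 4 and 6, against 33.5% and 29.5%. Flt1, Angpt2 and Tie1 were then no longer highest in rat 33, and Flt4 was lowest there. Leaving out the mitochondrial genome made rat 12 the highest for Angpt2 and rat 24-4 the lowest for Vegfb and Tek.

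The variability test asked whether a gene differed between the animals more than genes of its level do, and no gene of the system passed it. Of the 10 genes, 9 entered the test, since Flt4 was under the mean FPKM of 1, and 0 passed at an adjusted p under 0.05, against 0.102% of all genes tested. The limma adjusted p-values lay between 0.989 and 0.994, and 0 of the 9 had an unadjusted p under 0.05, against 820 of 13754 genes. Angpt1 had the smallest unadjusted limma p (0.155), with an SD of 0.63 on the log2(FPKM + 1) scale. Kdr had an SD of 0.47, Tek 0.42 and Vegfa 0.41, while Angpt2 had 0.19 and Flt1 0.16. A p that misses the threshold does not show that the animals had equal levels.

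**Figure D3:**
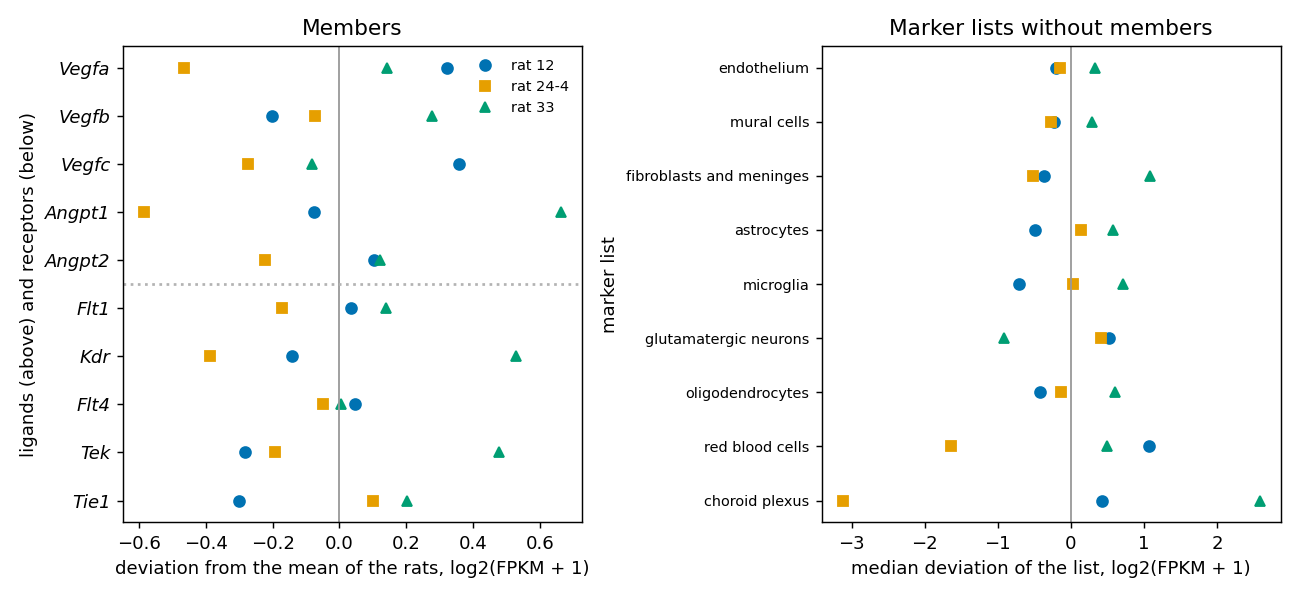
Left, deviation of each ligand (above) and receptor (below) from the mean of the 3 rats on the log2(FPKM + 1) scale; right, median deviation of 9 marker lists without members of the system, on a wider axis. Rat 24-4 lies left of 0 for all genes but Tie1, and the choroid plexus list runs from -3.12 in rat 24-4 to 2.58 in rat 33.

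Markers of other cells were set beside these values. In bulk tissue, fewer cells of a type and less RNA per cell cannot be told apart. The median deviation of the 10 genes from the mean of the rats was -0.02, -0.21 and 0.17 in rats 12, 24-4 and 33, beside -0.06, 0.01 and 0.07 for all genes tested. For choroid plexus markers it was 0.42, -3.12 and 2.58, and 5 of the 7 measured markers passed the limma variability test, against 0.102% of all genes tested. None of the 7 passed without a filter, with a mean FPKM of at least 0.1, with the mitochondrial genome left out, with a prior that is not robust or without rat 24-4, and all 7 passed with a pseudocount of 0.1, with the medians made equal or without rat 12 or rat 33. Of the 69 tested genes of the other 11 cell type lists, 0 passed by limma. An unadjusted limma p under 0.05 was found for 18 of the 69, against 820 of all 13754 genes tested (5.96%). All 7 choroid plexus markers were highest in rat 33 and lowest in rat 24-4, and none was listed at 0 in any animal. Choroid plexus vessels are known to carry Vegfa receptors. All 7 markers thus had the order of rat 33, rat 12 and rat 24-4. Flt1, Kdr, Angpt1 and Angpt2 shared that order, 4 of the 10 genes, against 20.7% of all genes tested. Vegfa itself was lowest in rat 24-4, as the choroid plexus markers were, but highest in rat 12 and not in rat 33. The part of this tissue in the values of the system, those of Vegfa included, was not tested. As markers of fenestrated endothelium, the leaky kind found in the choroid plexus, 3 genes were listed. They summed to an FPKM of 28.3, 21.4 and 16.3 in rats 12, 24-4 and 33. Most of that sum was Car4 in each rat, and whether Car4 marks this endothelium here was not tested. They did not share an order, with Plvap at 2.31, 1.47 and 5.63 and Car4 at 25.8, 19.9 and 9.44. Esm1, the remaining gene of the list, had a low mean that missed the filter. It was highest in rat 33 and lowest in rat 24-4, as Plvap and the choroid plexus markers were.

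The 15 measured endothelial markers other than the receptors, which summed to an FPKM of 162, 204 and 224 in rats 12, 24-4 and 33, deviated by -0.20, -0.15 and 0.33. Of these 15, 14 were highest in rat 33, against 42.0% of all genes tested. The 13 mural cell markers deviated by -0.23, -0.27 and 0.30 and summed to 141, 113 and 229. Mural cells are the pericytes and smooth muscle cells of the vessel wall, a known source of Angpt1. Fibroblast and meningeal markers deviated by -0.36, -0.52 and 1.08 and summed to 76.9, 47.5 and 211, with Col1a2 listed at 0 in all animals. Astrocyte markers, of a cell type known to make Vegfa, summed to 1384, 2391 and 3180. Of these 8 markers, 7 were lowest in rat 12, where Vegfa was highest, against 37.9% of all genes tested. Gfap led the sum, with 271, 937 and 1585, while Aldoc was lowest in rat 33. The part of astrocytes in these values was not tested either.

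By mean FPKM, the highest endothelial marker was Slc2a1, the glucose transporter of the blood-brain barrier, at 48.3, 62.5 and 63.7 in rats 12, 24-4 and 33, and the lowest was the transcription factor gene Erg, at 1.84, 1.30 and 1.99. Rgs5, a pericyte gene, was by mean the highest mural marker at 48.2, 28.3 and 72.6, and the peptidase gene Anpep the lowest at 1.24, 1.31 and 2.96. Flt4 was set beside 4 other genes used as markers of lymphatic endothelium, since that is where it is best known. Of these, Lyve1, which perivascular macrophages also carry, had 1.61, 0.357 and 0.747, and the chemokine gene Ccl21 was listed at 0, 0.277 and 0. Pdpn and Prox1, which other brain cells use too, were higher, with 10.2, 17.6 and 41.8 for Pdpn and 2.84, 2.35 and 6.86 for Prox1. Lyve1 and Ccl21 were thus, like Flt4, under an FPKM of 1 in rats 24-4 and 33.

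Red blood cell markers had the order of animals that Vegfa, Vegfc and Flt4 had. For Flt4 a difference between the animals was not detectable for a 1-kb transcript, and with the medians made equal it was lowest in rat 33. The 4 red blood cell markers summed to 559, 84.3 and 391 in rats 12, 24-4 and 33, led by Hba1, which encodes a haemoglobin chain, at 294, 45.5 and 220. Sums for microglia were 110, 192 and 324, for macrophages 4.80, 9.47 and 27.4, and for oligodendrocytes 4938, 6245 and 11222. These 3 sums were lowest in rat 12 and highest in rat 33, an order that Vegfb, Tek and Tie1 shared. The macrophage sum was led by Cd68, at 1.73, 8.22 and 24.1 in rats 12, 24-4 and 33. Its order was not that of all macrophage markers. Cd163, Mrc1 and Lyve1, all lower than Cd68, were lowest in rat 24-4, while F13a1 was lowest in rat 12 as Cd68 was. Glutamatergic neuron markers summed to 2061, 2160 and 1030 and were lowest in rat 33. The share of all genes tested that had the order of Vegfa, or that of Tek, was not counted. The part of these cell types in the levels of the system was not tested.

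Receptor genes were also set against the endothelial markers of the same animal. Flt1 lay above the median of the endothelial list by 0.54 ± 0.20 and Tie1 by 0.22 ± 0.26, both in all 3 animals. Tek minus that median was -0.14 ± 0.13, with -0.27, -0.13 and -0.02 in rats 12, 24-4 and 33. Kdr gave -1.07 ± 0.18 and Flt4 -2.36 ± 0.31. For Kdr and Tek the SD between animals was smaller relative to the list than for the level itself, 0.18 against 0.47 for Kdr and 0.13 against 0.42 for Tek. For Flt1 (0.20 against 0.16) and Flt4 (0.31 against 0.05) it was larger, and for Tie1 it was 0.26 in both. Of the ligands, Vegfa lay above the median by 2.03, 1.29 and 1.34 in rats 12, 24-4 and 33, whereas Angpt1 lay below it with -2.03 ± 0.35.

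**Figure D4:**
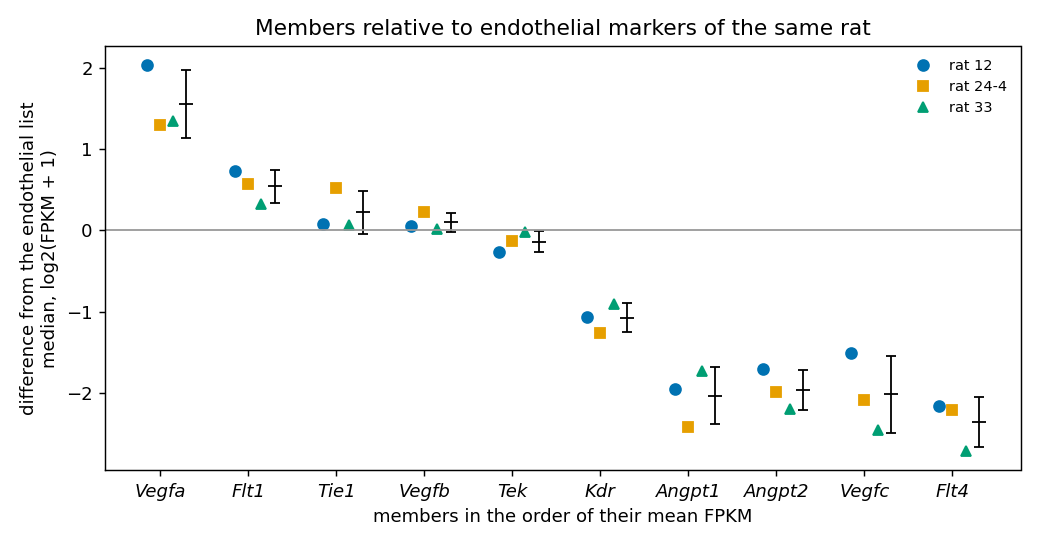
Difference of each gene of the system from the median of 15 endothelial markers of the same rat on the log2(FPKM + 1) scale, in the order of mean FPKM; symbols are rats 12, 24-4 and 33, and black bars are the mean and SD. Vegfa, Flt1, Tie1 and Vegfb lie above 0 in all 3 rats and the other 6 genes below 0.

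Other ligands, coreceptors and signalling partners of the system were measured as a list of 30 genes, of which 28 were matched. Of the 23 that reached a mean FPKM of 1, 0 passed the limma variability test, again against 0.102% of all genes, and their median deviation was -0.22, -0.04 and 0.19 in rats 12, 24-4 and 33. The coreceptors of VEGF, Nrp1 and Nrp2, had 6.16, 7.72 and 14.9 and 2.91, 4.21 and 13.7. Both were highest in rat 33. Pgf, a further ligand of Flt1, had 0.793, 0.631 and 2.76, and the Flt4 ligand gene listed as Figf had 0.0664, 0.0788 and 0.418. Angpt4 had 0.308, 0.373 and 1.02, so the remaining ligands of both families were also near or under an FPKM of 1 in rats 12 and 24-4. Ptprb, a phosphatase that restrains Tek, had 4.14, 4.38 and 6.80, and Cdh5, the cadherin of endothelial junctions, had 4.39, 4.80 and 7.47. The lowest member of the list was the Kdr adaptor gene Sh2d2a at 0.137 ± 0.0897.

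Genes that set or follow the oxygen response were measured as well, since Vegfa is one of its targets. Of 10 regulators 9 were matched, all 9 entered the test and 0 passed it, with median deviations of -0.03, -0.27 and 0.22 in rats 12, 24-4 and 33. Epas1 (HIF-2 alpha), a transcription factor abundant in endothelium, was the highest at 45.1, 39.2 and 63.5, and Sp1, which binds GC boxes, the lowest at 6.14, 5.43 and 9.15. Hif1a, the oxygen-regulated subunit of HIF-1, had 21.2, 14.8 and 23.4, with rat 24-4 lowest as for Vegfa. Of 12 other hypoxia targets 10 entered the test and 0 passed it, with median deviations of -0.13, 0.10 and 0.00. The highest was the glycolytic enzyme gene Pgk1 at 238, 291 and 196, while Epo was listed at 0 in all animals. Pgk1 was 1 of 2 tested targets highest in rat 24-4, the animal with the lowest Vegfa, against 34.2% of all genes tested. Rats 12 and 33 were highest for 4 of the 10 each, against 23.8% and 42.0%. Of the 10, 1 was lowest in rat 24-4, as Vegfa was, against 33.3%.

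Genes whose pattern over the 3 animals was nearest to that of Vegfa, Flt1, Kdr and Tek were sought by the Euclidean distance between deviations from the mean of the rats. Nearest to Vegfa were Rad18 (distance 0.0117), Rslcan18 (0.0124) and Usp25 (0.0126), and to Flt1 they were Tbc1d2 (0.00556), Phax (0.00980) and Mzf1 (0.0100). Nearest to Kdr were Pign (0.0101), Slc16a13 (0.0125) and Mia (0.0139), and to Tek they were Ccdc125 (0.00194) and Isoc1 (0.00747). With only 3 animals many patterns coincide, and 154, 373, 129 and 152 genes tested lay within a distance of 0.1 of Vegfa, Flt1, Kdr and Tek. None of the named neighbours was another gene of the system.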

How the data were processed

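Messenger RNA of motor cortex from 3 rats was sequenced, 1 library each. The authors deposited FPKM per gene, made by a script from normalized fragment numbers, per the series' design text. The submitters' processing notes name HISAT2 (version 2.0.4), StringTie (version 1.3.0) and the build Rnor_6.0. How fragment numbers were normalized, and whether the strand was used, is not given in the sources used here. An abundant transcript lowers the FPKM of all others in its library.

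Loci up to 400 bp, whose values are whole multiples of 1 fragment, gave an estimate of depth. With a tolerance of 0.02, 95.3% of 614, 94.1% of 592 and 95.0% of 639 values came out whole, at 15320000, 17220000 and 12990000 fragments in rats 12, 24-4 and 33. They may be library sizes before or after normalization.

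Values were analysed as log2(FPKM + 1). The variability test used genes whose mean FPKM reached 1. For each gene, limma (version 3.58.1, under R 4.3.3) fitted an intercept, with a trended, robust prior of 7.96 degrees of freedom, and the residual variance over its prior was compared with F, one-sided, with Benjamini-Hochberg adjustment over all genes tested and a threshold of 0.05. On simulated data, drawn from the test's own fitted prior with 1 rat shifted in some genes, the test recovered wide spreads and seldom narrow ones. P-values measure only the spread between these 3 libraries. Differences within rats were tested by exact sign-flip permutation. A list's level was its median over matched genes, by symbol or a synonym in the RefSeq table of GRCr8. Its deviation is over genes tested. Across the 17 lists, 5 genes were not matched. Tables and exact tests were made in Python 3.11.15 with scipy 1.17.1, numpy 2.4.6 and pandas 2.3.3.

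The members, lists and tests were chosen with earlier results of these data known. All 10 members are named, and of other genes the highest and lowest of a list, those of direct roles in the system, chosen after their values were seen, and the 3 nearest in pattern to Vegfa, Flt1, Kdr and Tek. Of the genes so chosen, 2 are not reported here. Alternatives covered the pseudocount (0.1 and 0.5), the filter, scaling, the prior and each rat left out.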

Additional observations from a re-analysis of the deposited data

How the results depend on the processing

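The number of genes in the whole table that varied between rats depended on the settings, being 14 as reported. It was 23 with a pseudocount of 0.1 and 54 with the medians made equal. It was 0 without a filter, with a mean FPKM of at least 0.1, with the mitochondrial genome left out and with a prior that is not robust, where an unadjusted limma p under 0.05 was found for 864, 903, 624 and 733 genes. With a rat left out it ran from 0 (without rat 24-4) to 104 (without rat 12), and the cause was not tested. No gene of the system passed in any of 88 recomputed tests, where limma adjusted p-values ran from 0.901 to 0.999. The ligand minus receptor difference of medians kept its sign in all 10 alternatives, from -2.06 to -0.31, the second with means over members. Of 133 recomputed pair differences 3 changed sign. Angpt1 minus Angpt2 ran from -0.34 (without rat 33) to 0.11 (without rat 24-4) and was 0.02 without rat 12. Angpt2 minus Vegfc ran from -0.048 (without rat 33) to 0.18 (without rat 12). For levels relative to the endothelial list, the alternatives were added after seeing the data, and all 70 recomputed differences kept their sign. Leaving out the mitochondrial genome raised log2 FPKM by 0.45, 0.22 and 0.34 in rats 12, 24-4 and 33. No paired analysis was possible because there is 1 group, so no replicates could be matched between groups.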

Other observations

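Genes of sprouting vessels and of the matrix that stores or frees VEGF were measured as further lists. Of 14 tip and stalk cell genes, 11 had a mean FPKM of at least 1 and 0 passed the limma variability test. Of these 11, 10 were highest in rat 33, against 42.0% of all genes tested. The list's median deviation was -0.40, -0.04 and 0.34 in rats 12, 24-4 and 33, beside -0.06, 0.01 and 0.07 for all genes tested. Unc5b, a guidance receptor of tip cells, was the highest with an FPKM of 14.1, 22.0 and 30.7, and Kcne3 the lowest with 0.169, 0 and 0.0664. Dll4, the Notch ligand of tip cells, had 0.771, 0.877 and 0.926, and Apln, which encodes the peptide apelin, had 9.61, 8.73 and 9.57. These values of Dll4 and Apln are named after they were seen. Also highest in rat 33 were 14 of the 15 endothelial markers, all 6 microglia markers and all 5 oligodendrocyte markers. Of the 7 markers of glutamatergic neurons, 0 were highest there. The part of these cell types in the values of the tip and stalk cell genes was not tested.

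Of 11 matrix and protease genes, all entered the test and 0 passed it, with median deviations of -0.16, -0.31 and 0.67 in rats 12, 24-4 and 33. Sparc, a matrix protein that binds VEGF, was the highest with 187, 410 and 555, and Thbs1, which encodes an inhibitor of vessel growth, the lowest with 1.29, 0.493 and 2.31. Mmp14, a membrane protease, had 6.01, 5.35 and 23.6, and Mmp9 had 1.56, 4.55 and 0.474. Mmp9 was thus lowest in rat 33, where 8 of the 11 genes were highest, against 42.0% of all genes tested. Fibroblast and meningeal markers, which summed to 76.9, 47.5 and 211 in the same order, also were highest in rat 33, and their part in these values was not tested.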
